A study of Mus musculus with 4 samples.

Results

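The genes described here are 5 of the 19465 measured in each section: Plau, Plat, Plaur, Serpine2 and Serpinb2, taken by symbol as members of the plasminogen activation system. Spatial transcriptomes were read from 4 formalin-fixed, paraffin-embedded sections of 2 BALB/c mice, named Mouse_627 and Mouse_628. At 8 weeks of age, each mouse had received 100000 4T1 cells, a BALB/c mammary carcinoma line, into the mammary fat pad. At day 28 each gave 1 section of the primary tumour and 1 of the lung, so that each tissue was measured in n = 2 animals. Both tissues came from the same tumour-bearing mice, no lung of a mouse without tumour was analysed here, and a single transplanted line stands for the disease. The comparisons ask how the activators, their receptor and their inhibitors differ between the primary tumour and the lung, and between carcinoma-rich places and the rest of the lung.

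In this pathway, an activator protease cleaves circulating plasminogen into plasmin, which dissolves fibrin and cuts other matrix proteins. Plau encodes the urokinase-type activator, and Plaur encodes the surface receptor that holds it at the cell membrane. Plat encodes the tissue-type activator, which works mostly on fibrin and in vessels. Serpine2, also called protease nexin-1, is a secreted inhibitor of thrombin and of both activators. Serpinb2, also called plasminogen activator inhibitor 2, is a largely intracellular inhibitor. The urokinase system is known for its part in the spread of mammary carcinoma, and urokinase and its receptor are also made by myeloid cells.

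The genes lie on 4 chromosomes of the mouse genome (mm10, GENCODE vM21 annotation). Plau (ENSMUSG00000021822) lies at chr14:20836660-20843385 on the plus strand. Plaur (ENSMUSG00000046223) lies at chr7:24462484-24475968 on the plus strand. Plat (ENSMUSG00000031538) lies at chr8:22757727-22782844 on the plus strand. Serpine2 (ENSMUSG00000026249) lies at chr1:79794197-79861180 on the minus strand, and Serpinb2 (ENSMUSG00000062345) at chr1:107511423-107535478 on the plus strand.

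The promoters of Serpine2 and Plaur are printed because these are the member that differed most between the tissues and the member that differed least among those well above background. Each line gives the 250 bases before the RefSeq start on the gene's own strand (GRCm38.p6), at chr1:79858666-79858915 on the minus strand for Serpine2 and at chr7:24462233-24462482 on the plus strand for Plaur. Capitals mark matches, on either strand and with overlaps counted, to the AP-1 motif TGANTCA and the GC box GGGCGG.
Serpine2 promoter: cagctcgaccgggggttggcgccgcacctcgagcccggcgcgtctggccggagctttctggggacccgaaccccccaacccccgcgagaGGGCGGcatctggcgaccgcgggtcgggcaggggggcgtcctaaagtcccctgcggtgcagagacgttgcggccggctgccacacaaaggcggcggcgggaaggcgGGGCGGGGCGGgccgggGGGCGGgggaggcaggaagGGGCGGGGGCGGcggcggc
Plaur promoter: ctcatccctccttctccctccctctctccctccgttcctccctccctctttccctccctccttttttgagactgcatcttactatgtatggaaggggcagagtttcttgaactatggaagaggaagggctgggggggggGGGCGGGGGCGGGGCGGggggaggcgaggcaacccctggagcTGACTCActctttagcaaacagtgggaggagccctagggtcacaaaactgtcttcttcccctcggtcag

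The Serpine2 window held 6 GC boxes and no AP-1 match, and 78.8% of its bases were G or C. The Plaur window held 3 GC boxes in a row and 1 AP-1 match, at 59.6% G or C. The Serpinb2 entries, at 32.4% and 38.4% G or C, each held 1 AP-1 match, 1 TATA box (TATAAA) and no GC box. No window of these genes held the hypoxia response core ACGTG. Among 32851 promoter windows of the same length, 32.7% held a GC box, 6.75% an AP-1 match, 12.4% a TATA box and 16.6% the hypoxia response core, and the median share of G and C was 52.4%. A match is a description of the letters and says nothing of a factor's binding. Promoters of 3 of the 5 genes matched the RefSeq table, and Plau and Plat had no entry.

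Levels are given as CPM, counts of UMIs (unique molecular identifiers, 1 for each counted probe molecule) per 1000000 UMIs of the section, summed over spots with over 200 genes. The sections held 1697 to 2780 such spots and 10890154 to 30240176 UMIs, with a median of 1820 to 9175 UMIs per spot. Each spot covers a patch of tissue with several cells, often of more than 1 type. The deep library was the lung of Mouse_628 and the shallow one its tumour. As a floor, 1178 olfactory and vomeronasal receptor genes averaged 0.737 CPM in the tumour of Mouse_627, 7.86 CPM in the tumour of Mouse_628, and 0.205 and 0.155 CPM in the lungs. The tumour of Mouse_628 therefore had the highest background, with 5% of receptor genes above 19.0 CPM. The labelled tissues carried their markers: Sftpc, a surfactant gene, was at 9985 and 5766 CPM in the lungs and at 0.30 and 7.4 CPM in the tumours. Mmp3, one of the carcinoma markers, was at 2439 and 3238 CPM in the tumours and at 33.6 and 485 CPM in the lungs.

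The lungs held different amounts of carcinoma. A list of 11 measured carcinoma markers (Hmga2, Csf3, Mmp3 and others) took 6165 and 7028 CPM in the tumours of Mouse_627 and Mouse_628, 471 CPM in the lung of Mouse_627 and 2426 CPM in the lung of Mouse_628. The neutrophil list ran the other way, at 80615 CPM in the lung of Mouse_627, 32792 CPM in the lung of Mouse_628, and 2536 and 11161 CPM in the tumours. In these sums, fewer cells of a type and less RNA per cell cannot be told apart.

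Serpine2, the secreted inhibitor, was the member with the widest difference between tissues. Its level was 1671 CPM in the tumour of Mouse_627, 1705 CPM in the tumour of Mouse_628, 33.2 CPM in the lung of Mouse_627 and 219 CPM in the lung of Mouse_628. Both tumours lay far above both lungs, and the tumours were nearly alike while the lungs were not. The tumour level was 50.4-fold the lung level in Mouse_627 and 7.79-fold in Mouse_628, with means of 1688 ± 24.2 (SD, n = 2) in the tumour and 126 ± 131 (SD, n = 2) in the lung. In the edgeR quasi-likelihood test, Serpine2 fell by 3.55 on the log2 scale in the lung (SE 0.75, adjusted p = 0.0236). Its single-mouse log2 ratios were -5.61 in Mouse_627 and -2.96 in Mouse_628, so that leaving out Mouse_628 gave the larger value and no test. In this comparison 7.46% of 15267 tested genes were called, 6.31% higher and 1.15% lower in the lung. The split depended on the method: edgeR called 963 genes higher and 176 lower, and DESeq2 1436 higher and 1208 lower. Serpine2 was the 1 member of the 5 that was called. With the mouse as a block, 11.9% of genes were called, and Serpine2 fell by 4.01 (edgeR, SE 0.74, adjusted p = 1.89e-06). That smaller p does not measure the spread between the 2 mice, whose ratios were -5.61 and -2.96.

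Plau, the urokinase gene, did not separate the tissues. It was at 304 CPM in the tumour of Mouse_627, 243 CPM in the tumour of Mouse_628, 34.3 CPM in the lung of Mouse_627 and 304 CPM in the lung of Mouse_628. The lung of Mouse_628 was as high as the highest tumour, while the lung of Mouse_627 was 8.87-fold below the tumour of the same animal. The groups overlapped, at 273 ± 43.0 CPM (SD, n = 2) in the tumour and 169 ± 191 CPM (SD, n = 2) in the lung, with an edgeR log2 difference of -0.51 (SE 0.72, adjusted p = 0.744). The order of the lungs was that of the carcinoma list in them. The macrophage list, at 568 CPM in the lung of Mouse_627 and 1157 CPM in that of Mouse_628, had the same order. So did the fibroblast list, at 899 and 1877 CPM, and the part of each list was not tested.

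Plat, the tissue-type activator, was a low gene in every section. It was at 13.2 and 11.3 CPM in the tumours of Mouse_627 and Mouse_628, and at 13.3 and 30.7 CPM in their lungs. The lung of Mouse_628 stood apart, and the other 3 sections lay close together. The value in the tumour of Mouse_628 was under the 19.0 CPM that 5% of its receptor genes passed, so it could not be told from background there. The difference of 1.09 on the log2 scale did not pass the test (edgeR, SE 0.48, adjusted p = 0.214).

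Plaur, the urokinase receptor, varied least. It was at 438 and 460 CPM in the tumours and at 296 and 377 CPM in the lungs of Mouse_627 and Mouse_628. Both tumours lay above both lungs in plain CPM, but the scaling used in the test, which raises differences of lung over tumour by 0.31 on the log2 scale, brought the values to 412 and 393 CPM against 364 and 380 CPM. The edgeR log2 difference was -0.13 (SE 0.39, adjusted p = 0.890), and with no filter on low counts the value was 0.039. In the plot of levels by section, Plaur is the gene whose 4 bars are most alike.

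Serpinb2, the intracellular inhibitor, was at or near background in the tumours. It was at 0.89 and 7.62 CPM in the tumours of Mouse_627 and Mouse_628, where the receptor genes averaged 0.737 and 7.86 CPM. It was at 1.80 and 5.52 CPM in the lungs, where the 95th percentile of the receptor genes was 0.539 and 0.397 CPM. Serpinb2 was thus above background in the lungs only, in few UMIs, and its test gave a log2 difference of 0.065 (edgeR, SE 1.30, adjusted p = 0.986).

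**Figure D1:**
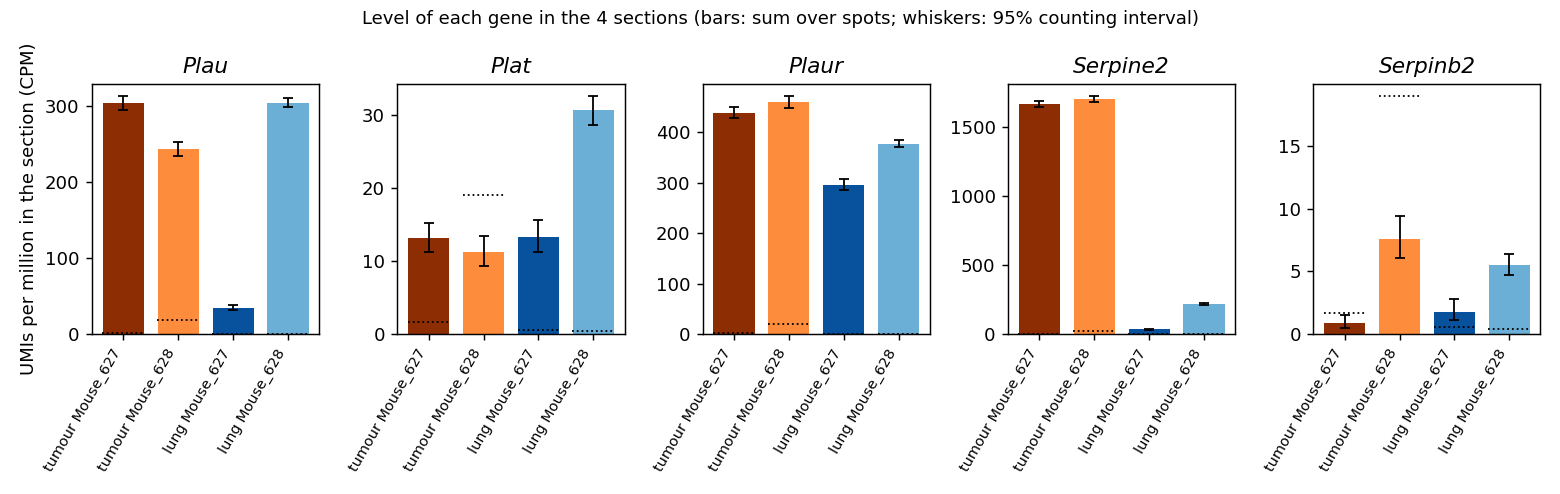
CPM of each gene (y axis, its own scale per panel, from 0) in the 4 sections, with 95% Poisson counting intervals as whiskers and the 95th percentile of the receptor genes as dotted lines. Serpine2 stands at 1671 and 1705 CPM in the tumours against 33.2 and 219 CPM in the lungs, and Plau is low in the lung of Mouse_627 alone.

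The share of spots with at least 1 UMI gave the same picture once depth was held equal. Serpine2 was seen in 78.8% and 85.5% of spots of the tumours and in 18.3% and 60.2% of spots of the lungs of Mouse_627 and Mouse_628. With each spot thinned to 1000 UMIs, the shares were 77.3% and 69.0% in the tumours and 3.21% and 14.4% in the lungs, leaving out 886 and 56 shallower tumour spots and 10 and 5 lung spots. Plaur was seen in 61.3% and 55.3% of tumour spots and in 80.9% and 90.6% of lung spots. Among the spots deep enough to thin, its unthinned shares were 85.3% and 56.2% against 81.3% and 90.8%. After thinning they were 35.7% and 31.4% against 25.9% and 30.8%. The order had thus turned in Mouse_627 once shallow spots were left out. In Mouse_628 thinning brought the shares close together, at 31.4% in the tumour and 30.8% in the lung. Plau was seen, after thinning, in 24.4% and 12.5% of tumour spots and in 3.47% and 18.5% of lung spots. A receptor gene was seen in 0.393%, 3.50%, 0.134% and 0.168% of unthinned spots on average in the tumours of Mouse_627 and Mouse_628 and the lungs of Mouse_627 and Mouse_628. Serpinb2 was in 3.50% of spots of the tumour of Mouse_628, equal to that background, with no more than 1 UMI in any spot. In the lung of Mouse_628 it reached 7 UMIs in a spot and was in 4.53% of spots.

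Tumour UMIs of these genes were less evenly spread in Mouse_628 than in Mouse_627. The tenth of spots with most Serpine2 held 66.5% of its UMIs in the tumour of Mouse_628 and 44.1% in that of Mouse_627. For Plau these shares were 75.2% and 46.9%, and for Plaur 58.9% and 42.0%. Depth moved with this pattern, since carcinoma-rich spots of the tumour of Mouse_628 had a median of 7792 UMIs against 1513 in its carcinoma-poor spots, and its part in the result was not tested.

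Within the lung, Plau was concentrated where the carcinoma markers were. Carcinoma-rich spots were the tenth of each lung section with the largest share of UMIs on the carcinoma list (170 and 278 spots), and carcinoma-poor spots were those at or below the median (849 and 1390 spots). Plau was at 136 CPM (95% Poisson interval 115 to 159) in carcinoma-rich and 17.7 CPM in carcinoma-poor spots of Mouse_627. It was at 587 CPM (565 to 609) and 88.1 CPM in Mouse_628. The rise was of like size in both mice, with log2 ratios of 2.94 and 2.74, although the levels differed several-fold between the mice. Over the summed counts of the 2 mice the edgeR log2 difference was 2.60 (SE 1.05, adjusted p = 0.370), and with the mouse as a block 2.64 (SE 0.23, adjusted p = 0.0639). All intervals cover counting error only, and spots of a section are not replicates.

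Serpine2 followed the same places in the lung. It was at 71.1 CPM in carcinoma-rich and 23.0 CPM in carcinoma-poor spots of Mouse_627, and at 379 and 84.6 CPM in Mouse_628. The edgeR log2 difference was 1.89 (SE 0.99, adjusted p = 0.378), or 1.72 with the mouse as a block (adjusted p = 0.0639). Plaur did not: it was at 280 against 304 CPM in Mouse_627 and at 387 against 383 CPM in Mouse_628 (edgeR log2 difference -0.23, adjusted p = 0.659). Plat was at 20.1 against 10.1 CPM and at 38.8 against 23.4 CPM (log2 difference 0.66, edgeR adjusted p = 0.503), and Serpinb2 rested on 4 and 35 UMIs in the carcinoma-rich spots (log2 difference 0.99, edgeR adjusted p = 0.495).

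This comparison called 0% of 12652 genes with or without the block. By edgeR 1409 genes had an unadjusted p under 0.05, or 4188 with the block, and DESeq2 called 0 genes, with 1806 at an unadjusted p under 0.05. With carcinoma-rich spots narrowed to the top fiftieth of each lung, a setting chosen after seeing the data, and the mouse as a block, 4104 genes (34.0% of 12076) were called. There Plau was higher by 2.87 on the log2 scale (edgeR adjusted p = 2.85e-05) and Serpine2 by 1.78 (edgeR adjusted p = 4.62e-05). Carcinoma-rich spots of the 2 lungs were not alike: the alveolar list had a median of 10617 CPM in them in Mouse_627 and 1334 CPM in Mouse_628, and the neutrophil list 54062 and 4052 CPM. Other lists were higher in the carcinoma-rich spots of both lungs: in carcinoma-rich against carcinoma-poor spots the fibroblast list had medians of 1013 against 535 CPM in Mouse_627 and 2023 against 1008 CPM in Mouse_628, and the macrophage list 881 against 422 CPM and 1270 against 642 CPM. The median depth was 5548 against 6759 UMIs in Mouse_627 and 16500 against 7390 UMIs in Mouse_628. The part of depth and of these lists in the result was not tested.

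**Figure D2:**
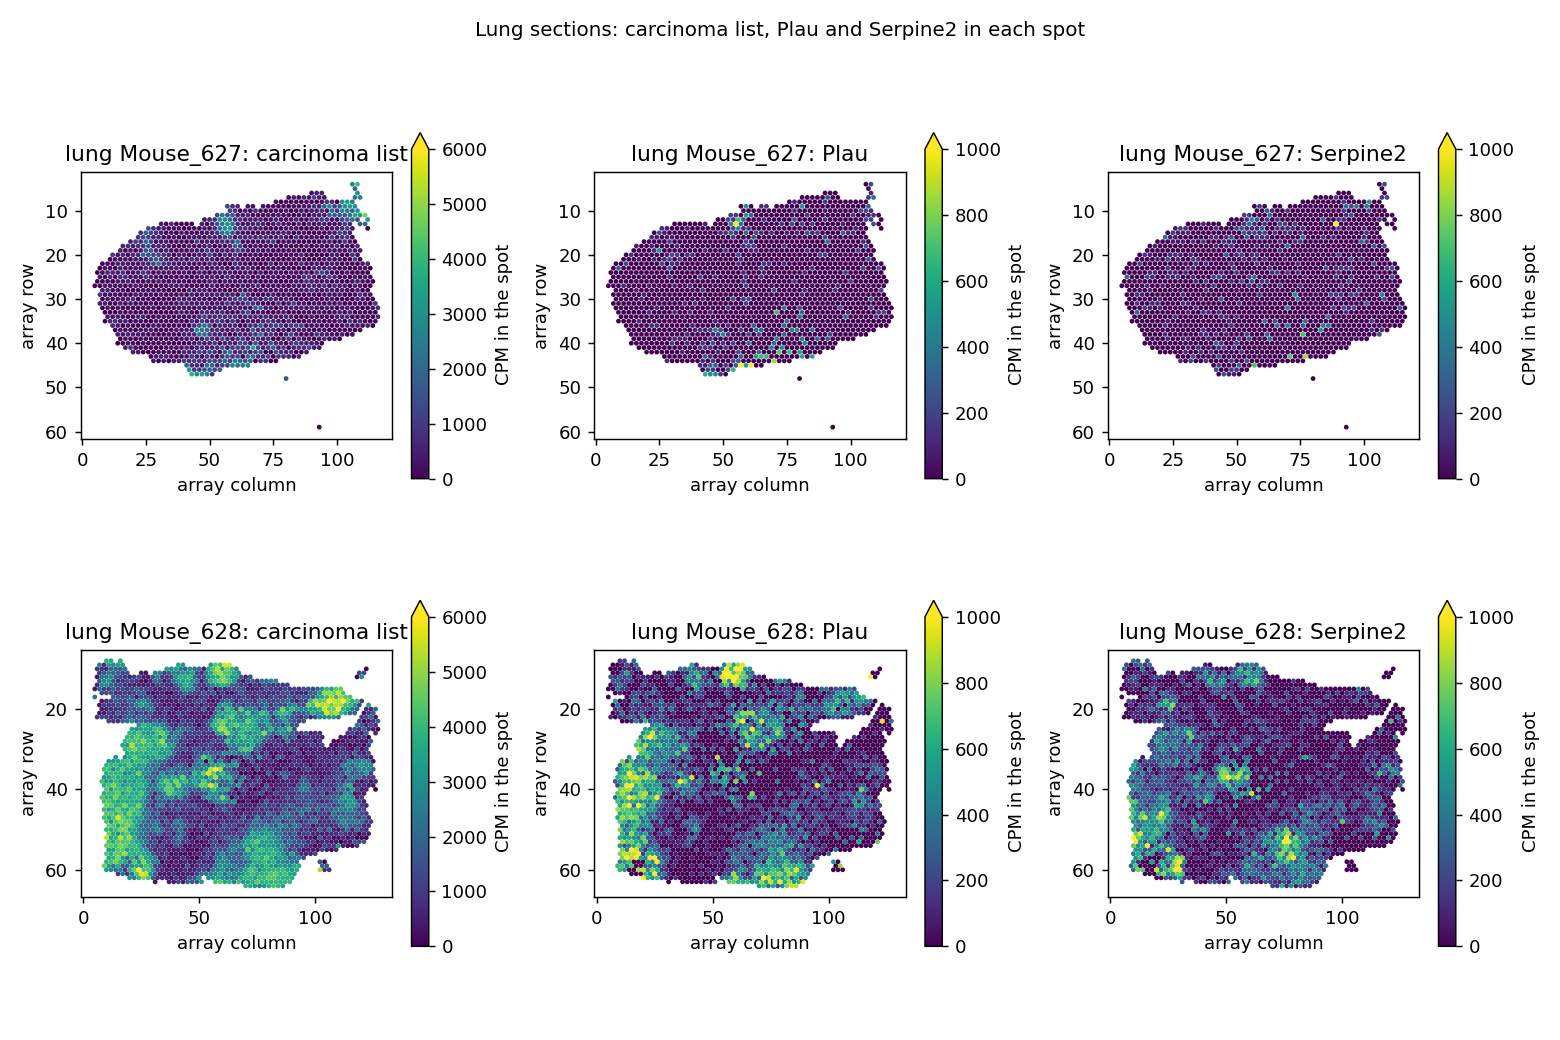
Spot maps of the lungs of Mouse_627 (top) and Mouse_628 (bottom), with array column and row as axes and colour giving CPM in the spot for the carcinoma list, Plau and Serpine2. Patches of high carcinoma list in Mouse_628 hold most of the spots high in Plau (587 CPM in carcinoma-rich against 88.1 CPM in carcinoma-poor spots), and Serpine2 lies in the same patches at lower levels.

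The levels of Plau and Serpine2 fell with distance from the carcinoma-rich spots of the lung. Counted in steps on the hexagonal spot grid, Plau in Mouse_627 went from 136 CPM in the carcinoma-rich spots to 56.2 CPM at 1 step, 26.4 CPM at 2 steps and 15.4 CPM at 6 or more steps. In Mouse_628 it went from 587 CPM to 489, 333 and 120 CPM at the same distances. The fall was steep in Mouse_627 and took more steps in Mouse_628. In Mouse_627 the carcinoma list had medians of 1654 CPM at the start, 507 CPM at 1 step and 196 CPM at 6 or more. In Mouse_628 the list fell slowly, from a median of 4384 CPM to 3364 CPM at 1 step and 910 CPM at 6 or more. That list defines the carcinoma-rich spots, and its part in the fall was not tested. Serpine2 went from 71.1 CPM to 21.0 CPM in Mouse_627 and from 379 CPM to 116 CPM in Mouse_628 over the same range. Plaur stayed between 271 and 309 CPM in Mouse_627 and between 359 and 388 CPM in Mouse_628 at all distances. Plat was at 20.1 and 11.9 CPM at the 2 ends in Mouse_627, and at 38.8 and 23.4 CPM in Mouse_628.

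**Figure D3:**
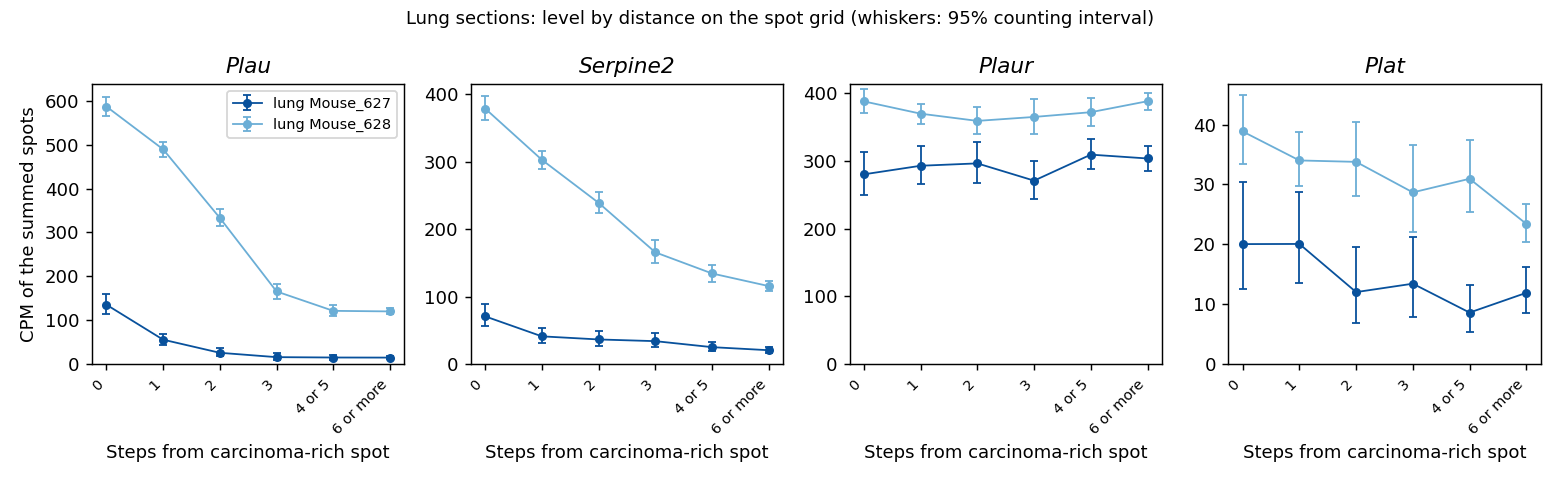
CPM of 4 genes (y axis, from 0) in the lungs by steps from the nearest carcinoma-rich spot (x axis), with 95% Poisson counting intervals as whiskers. Plau and Serpine2 decline in both lungs and Plaur stays level, between 271 and 388 CPM.

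Carcinoma-rich lung spots were then set against the primary tumours, to ask whether the tissue difference of Serpine2 holds where the lung carries carcinoma markers. Serpine2 was at 71.1 CPM in the carcinoma-rich spots of Mouse_627 and 379 CPM in those of Mouse_628, still under the 1671 and 1705 CPM of the tumours. These lung spots also carried less carcinoma signal than the tumours: the carcinoma list took 1885 and 4403 CPM in them against 6165 and 7028 CPM, and the 3 narrow markers (Hmga2, Csf3 and Mmp3) 303 and 1580 CPM against 3513 and 4418 CPM. The hypoxia list took 3759 and 4226 CPM in the tumours and 609 and 718 CPM in the whole lungs. Between the tissues these lists moved with Serpine2, and their part in the result was not tested. In hypoxia-rich against hypoxia-poor tumour spots it was lower in Mouse_627, at 1456 against 1662 CPM. In Mouse_628 it was higher, at 1826 against 1423 CPM. In tumour spots under 500 CPM of the carcinoma list it was at 1196 CPM in Mouse_627 and 706 CPM in Mouse_628. The log2 difference of Serpine2 between carcinoma-rich lung spots and tumour was -2.93 (SE 0.71), with an edgeR adjusted p of 0.251. With the mouse as a block it was -3.37 (SE 0.65), with an edgeR adjusted p of 2.70e-05. That p does not measure the spread between the mice. The first analysis called 0.0288% of 13873 genes, and the block 3.44%. The 4 genes of the first analysis, named after their values were seen, were Bpifa1, an airway secretory gene, higher in the lung, and the granzymes Gzmc, Gzmf and Gzmg, lower. The mice went opposite ways for Plau, with log2 ratios of -1.16 in Mouse_627 and 1.26 in Mouse_628, and the same way for Serpine2, at -4.54 and -2.17. Neither analysis called Plau (log2 difference 0.37, edgeR adjusted p = 0.887), Plaur (-0.46, adjusted p = 0.729), Plat (1.26, adjusted p = 0.382) or Serpinb2 (0.39, adjusted p = 0.950).

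Tumour and lung spots within one range of carcinoma share were also compared, a setting chosen after seeing the data. Spots with 2000 to 8000 CPM on the carcinoma list numbered 1929 and 1869 in the tumours and 58 and 1121 in the lungs of Mouse_627 and Mouse_628. In them Serpine2 was at 1674 and 1397 CPM in the tumours and at 89.0 and 309 CPM in the lungs. Plau was at 292 and 210 CPM in the tumours and at 199 and 454 CPM in the lungs, and Plaur at 435 and 430 CPM against 298 and 372 CPM. In this range, then, the Serpine2 level was lower in the lung of each mouse, while that of Plau was lower in the lung of Mouse_627 and higher in that of Mouse_628. The edgeR log2 difference of Serpine2 was -2.92 (SE 0.44, adjusted p = 2.76e-05). With the block it was -3.18 (edgeR adjusted p = 2.64e-09), and again that p does not measure the spread between the mice. These analyses called 6.27% and 6.68% of 14172 genes. The Plat difference was 1.33 (edgeR adjusted p = 0.0429), or adjusted p = 0.0649 with the block. The range was equal but the shares in it were not: the list took 5706 and 5697 CPM in the tumour spots and 2629 and 3473 CPM in the lung spots. The gap was wider on the 3 narrow markers, at 3148 and 3232 CPM in the tumour spots against 443 and 1106 CPM in the lung spots. The neutrophil list had medians of 2303 and 14589 CPM in the tumour spots and 40297 and 8099 CPM in the lung spots, where the alveolar list had medians of 8211 and 3076 CPM. The fibroblast list had medians of 578 and 70.8 CPM in the tumour spots and 1170 and 1678 CPM in the lung spots. Median depth was 3873 and 1844 UMIs in the tumour spots and 6837 and 14290 UMIs in the lung spots. The part of depth and of these lists in the result was not tested.

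The ratio of Serpine2 to Plau UMIs showed the difference within each section. It depends on the probes of both genes, so only its change between sections is read. It was 5.50 and 7.02 in the tumours, 0.969 and 0.721 in the whole lungs, 0.523 and 0.646 in the carcinoma-rich lung spots, and 0.447 and 0.681 in the lung spots of equal carcinoma range. Every lung value lay under every tumour value. With 2 sections in each tissue an exact two-sided permutation test cannot give a p under 0.333.

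**Figure D4:**
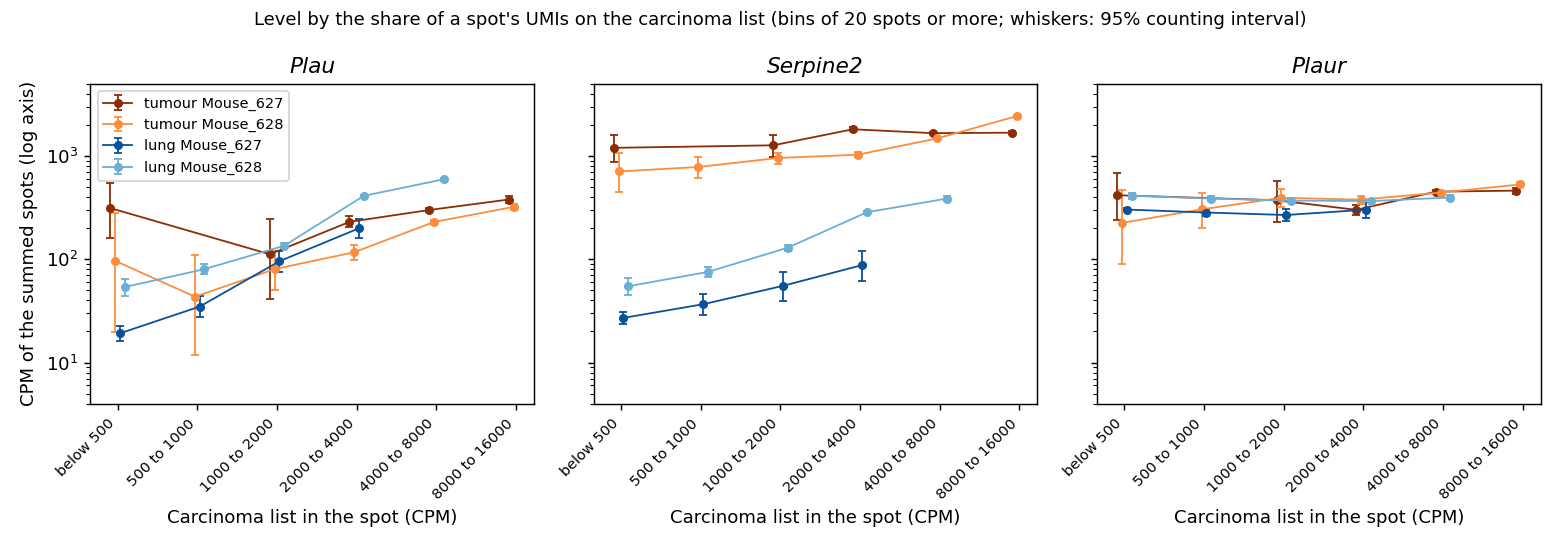
CPM of Plau, Serpine2 and Plaur (y axis, log scale) in spots binned by the share of UMIs on the carcinoma list (x axis), by section, with 95% Poisson counting intervals as whiskers and bins of at least 20 spots. In the bin of 2000 to 4000 CPM, Serpine2 is at 1809 and 1026 CPM in the tumours and at 87.8 and 285 CPM in the lungs, and Plau at 230 and 117 CPM against 199 and 410 CPM.

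The tumour sections themselves differed in how the genes followed the carcinoma list. In the tumour of Mouse_628, carcinoma-rich against carcinoma-poor spots held 334 against 120 CPM of Plau, 2470 against 1069 CPM of Serpine2 and 534 against 384 CPM of Plaur. In the tumour of Mouse_627 the values were 389 against 269 CPM of Plau, 1667 against 1684 CPM of Serpine2 and 494 against 401 CPM of Plaur. Plau and Plaur were higher in carcinoma-rich spots of both tumours, with intervals that did not overlap, while Serpine2 was so in Mouse_628 alone. Depth differed between these classes in opposite directions, with medians of 950 against 1582 UMIs in Mouse_627 and 7792 against 1513 UMIs in Mouse_628. The macrophage list had medians of 1057 against 1913 CPM in Mouse_627, and in Mouse_628 the hypoxia list had 4200 against 2944 CPM and the fibroblast list 286 against 0 CPM. The part of depth and of these lists in the contrast between the mice was not tested. Serpinb2 ran the other way in the tumour of Mouse_628, at 1.20 against 16.2 CPM, where all its values lay within the background of that section.

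Plaur was higher in neutrophil-rich than in neutrophil-poor spots of every section. It was at 547 against 425 CPM in neutrophil-rich against neutrophil-poor spots of the tumour of Mouse_627 and at 661 against 440 CPM in that of Mouse_628. In the lungs it was at 343 against 265 CPM in Mouse_627 and at 461 against 363 CPM in Mouse_628. The Poisson intervals did not overlap in any of the 4 sections, and the log2 ratios were 0.36, 0.59, 0.37 and 0.35. Plau and Serpine2 went the other way in all 4 sections. Plau had log2 ratios of -0.59 and -1.45 in the tumours and -1.58 and -2.87 in the lungs, and Serpine2 of -0.47 and -0.64 in the tumours and -1.55 and -2.42 in the lungs. The neutrophil list was itself lower in carcinoma-rich than in carcinoma-poor lung spots, with medians of 54062 against 89179 CPM in Mouse_627 and 4052 against 69280 CPM in Mouse_628, and its part in these ratios was not tested. Plaur did not move with that gap, at 280 against 304 CPM and 387 against 383 CPM. With distance from the carcinoma-rich spots of Mouse_628, the neutrophil median went from 4052 to 67655 CPM while Plaur was at 387 and 388 CPM at the ends. Median depth in neutrophil-rich against neutrophil-poor spots was 973 against 4788 UMIs in the tumour of Mouse_627 and 2323 against 1684 UMIs in that of Mouse_628. In the lungs it was 7112 against 5741 UMIs and 7672 against 12431 UMIs. The part of depth in the ratios was not tested.

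Plat was higher in fibroblast-rich and lower in neutrophil-rich spots of the lungs. Its log2 ratio in fibroblast-rich against fibroblast-poor spots was 1.11 in Mouse_627 and 0.63 in Mouse_628, and in neutrophil-rich against neutrophil-poor spots -1.38 and -1.06, all with intervals that did not overlap. The fibroblast list was higher and the neutrophil list lower in carcinoma-rich lung spots, where Plat was at 20.1 against 10.1 CPM and 38.8 against 23.4 CPM, so the lists moved together and the part of each was not tested. Endothelial-rich spots held no more of it than endothelial-poor spots, with log2 ratios of -0.07 and -0.09. In the tumours no list separated Plat beyond its counting intervals. Serpinb2 in the lung of Mouse_628 was higher in fibroblast-rich spots, with a log2 ratio of 2.24, and in Mouse_627 the ratio was -1.08 with overlapping intervals.

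**Figure D5:**
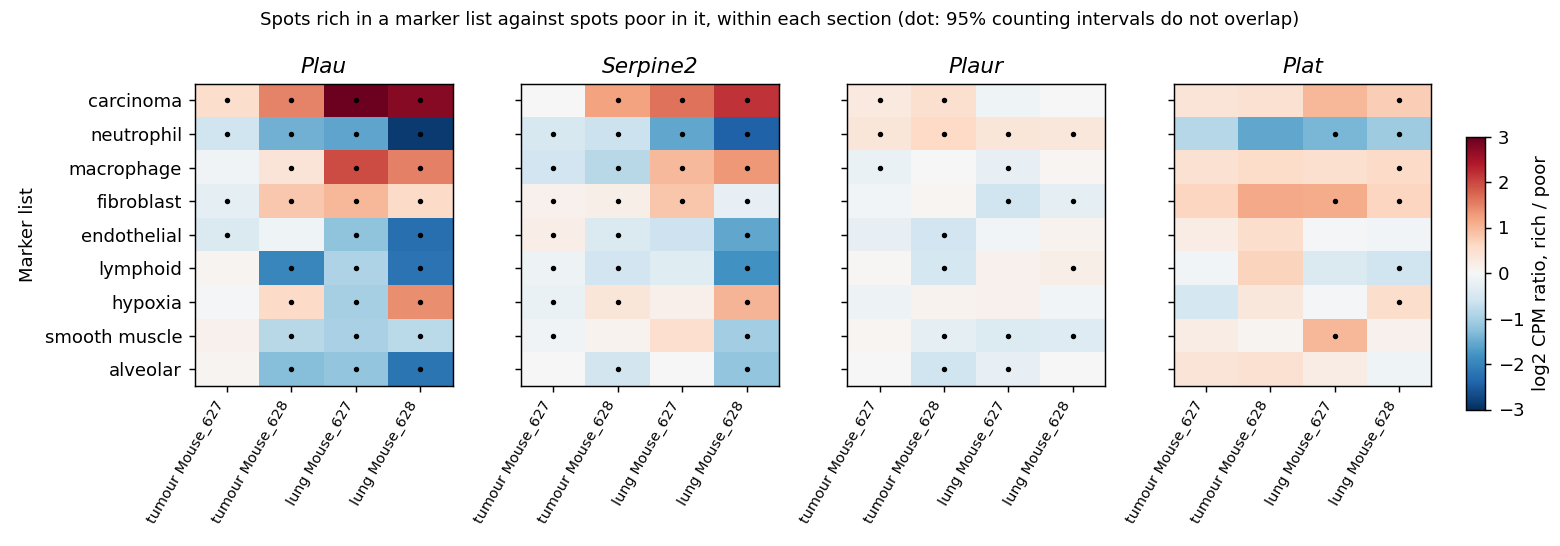
Log2 ratio of CPM in spots rich against spots poor in each marker list (rows), by section (columns), for 4 genes, with a dot where the 95% Poisson counting intervals do not overlap. The neutrophil row is positive in all 4 sections for Plaur (0.35 to 0.59) and negative for Plau and Serpine2. For Plat it is negative too, but beyond the counting intervals in the lungs only.

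Hypoxia did not separate the members in the tumours. Hypoxia-rich spots, the tenth with the largest share on a list of 9 hypoxia genes, held 285 against 292 CPM of Plau in Mouse_627 and 284 against 191 CPM in Mouse_628. Serpine2 was at 1456 against 1662 CPM and at 1826 against 1423 CPM. The direction differed between the mice for both genes, and the edgeR log2 differences were 0.28 for Plau, 0.15 for Serpine2, 0.055 for Plaur and -0.037 for Plat, all with an adjusted p of 1.00. Serpinb2 was too low to enter the test. The comparison called 0% of 14550 genes by edgeR, with 194 at an unadjusted p under 0.05, 3 by DESeq2, and 0.131% with the mouse as a block, none of them a member.

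Of the other genes of the plasminogen and fibrin pathway, 30 of the 31 listed were measured and 23 entered the test of lung against tumour. In it 6 were called higher in the lung, 0 lower and 17 not called, beside 6.31% higher and 1.15% lower over all tested genes, and the median log2 difference of the 23 was 0.10 against -0.0046 over all tested genes. The called genes were Thbd (thrombomodulin, a thrombin cofactor of endothelium; log2 difference 4.18, adjusted p = 0.00754), Sorl1 (3.10, adjusted p = 0.0160), Mrc2 (a collagen uptake receptor that also associates with the urokinase receptor; 2.29, adjusted p = 0.0193), F3 (tissue factor, which starts coagulation; 1.92, adjusted p = 0.0217), Serping1 (the C1 inhibitor; 2.44, adjusted p = 0.0252) and Vldlr (2.43, adjusted p = 0.0290), all by edgeR. Sorl1 and Vldlr are receptors of the family that takes up protease and inhibitor complexes. Thbd was at 149 and 46.0 CPM in the lungs of Mouse_627 and Mouse_628 and at 6.50 and 7.44 CPM in the tumours, and the endothelial list was at 2258 and 1089 CPM against 300 and 213 CPM. Sorl1 was at 693 and 274 CPM in the lungs and at 56.6 and 89.5 CPM in the tumours. The neutrophil list was at 80615 and 32792 CPM against 2536 and 11161 CPM. The part of the endothelial and neutrophil lists in these calls was not tested.

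Plg, the plasminogen substrate, was at 0.30 and 9.3 CPM in the tumours and at 0.090 and 0.23 CPM in the lungs, near the receptor genes of each section, and did not enter the test. In the other comparisons no pathway gene was called, except that Mrc2, Serping1 and Thbd were higher in carcinoma-rich lung spots than in the tumours with the mouse as a block.

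The genes most like each member across the tumours were found over tiles of spots, 72 in Mouse_627 and 65 in Mouse_628, which share sections and depth. For Plau these were Myof, Errfi1 and Actn1, with mean Pearson correlations of 0.68, 0.65 and 0.65. For Plaur they were Ccbe1, Rnf11 and Pfn1, at 0.75, 0.73 and 0.73. For Serpine2 they were Fn1, Spp1 and Eef1a1, at 0.64, 0.63 and 0.62. In the lungs only Plaur had enough UMIs in both sections, and its nearest genes were Cfl1, Actb and Rab11a, at 0.53, 0.49 and 0.45. Plau and Plaur, the ligand and its receptor, correlated at -0.036 in the tumour of Mouse_627 and 0.69 in that of Mouse_628, so that they moved together over tiles in one tumour and not in the other.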

How the data were processed

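The deposited files hold raw UMI counts per gene and spot for 4 Visium sections of probe-based, formalin-fixed tissue. Per the labels and the file headers, the authors made them with Space Ranger 2.0.0 on mm10. Spots with over 200 genes were kept, which removed 106 of 2596 spots of the tumour of Mouse_627 and none elsewhere. The sections shared 1342 barcodes, since Visium barcodes are fixed by position. Counts were summed per section or spot class and divided by the total UMIs for CPM, with exact 95% Poisson intervals. The depth per section is given with the levels, and intervals cover counting error only.

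Spot classes came from the share of UMIs on fixed marker lists that hold no member, and the list's genes were left out of the test that used it. Sums were compared with edgeR 4.0.16 (quasi-likelihood test at a threshold of 0.05 after Benjamini-Hochberg adjustment, with TMM scaling and the filterByExpr filter) in R 4.3.3, without a block and with the mouse as a block, because both tissues and all spot classes of a number come from the same animal. Deviations of same-numbered sums from their group means correlated at -0.31 and -0.39 in the comparisons of lung with tumour and at 0.49 in those within a tissue. Where the correlation was negative, a smaller p with the block is not stronger support. DESeq2 1.42.0, DESeq2 size factors in edgeR, no filter, other classes and leaving out each mouse were alternatives. Log2 ratios of a single mouse between tissues, and those with a mouse left out, used CPM + 1. The edgeR test was tested on simulated data, but the outcome is not given here. Likeness was Pearson's correlation of log2(CPM + 10) over tiles of 6 rows by 12 columns with at least 18 spots, among genes with at least 500 UMIs in both sections.

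Named genes were all 5 members, pathway genes with an adjusted p under 0.05 and 1 direction in both mice (at most 8), and Plg. One further gene of this rule is not reported here. The members and lists were chosen with earlier results of these data known.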

Additional observations from a re-analysis of the deposited data

Results flagged for a closer look

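Serpine2 ran in opposite directions with the macrophage list in the tumours and the lungs. In macrophage-rich against macrophage-poor spots its log2 ratio of CPM was -0.56 in the tumour of Mouse_627 and -0.84 in that of Mouse_628, and 0.98 and 1.31 in the lungs of Mouse_627 and Mouse_628. It was drawn out because every tumour section moved one way and every lung section the other, with counting intervals that did not overlap within any section. The difference between tissues was not tested. Other lists, the carcinoma list among them, change with the macrophage list from spot to spot: in the lungs the macrophage list had medians of 881 and 1270 CPM in carcinoma-rich spots against 422 and 642 CPM in carcinoma-poor spots. In the tumours these medians were 1057 against 1913 CPM in Mouse_627 and 198 against 246 CPM in Mouse_628. The part of these lists in the result was not tested.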

How the results depend on the processing

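Serpine2 stayed lower in the lung than in the tumour in every alternative run, and past the threshold in all alternatives of whole sections that give a test. Genes called between lung and tumour numbered 1139, and 2644 by DESeq2 (1436 higher, 1208 lower), 2022 with no filter and 1817 with the replicate block, under which Serpine2 fell by 4.01; with no filter the Plaur difference turned to 0.039. Leaving out one mouse left 1 sum per group and no test: the ranges of the log2 ratio were -3.11 to 0.32 for Plau, -0.57 to -0.29 for Plaur, 0.015 to 1.36 for Plat and -5.61 to -2.96 for Serpine2. For Serpinb2 the range was -0.40 to 0.57.

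Between carcinoma-rich and carcinoma-poor lung spots, calls came with the replicate block and the top fiftieth together: 4104 genes, Plau at 2.87 and Serpine2 at 1.78. Leaving out one mouse gave 2.73 to 2.87 for Plau, -0.12 to 0.021 for Plaur and 0.71 to 0.93 for Plat. With all other lung spots as the reference, the differences were smaller, at 1.35 (SE 1.26) for Plau and 0.99 (SE 1.14) for Serpine2.

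Between carcinoma-rich lung spots and tumour, 4 genes were called, 413 by DESeq2, 648 with no filter, 477 with the replicate block, 2 with the narrow list, 114 with the top fiftieth, 888 and 371 in spots matched on the carcinoma and the narrow list, and with the block added to these last 3 settings 554, 946 and 1453. Serpine2 did not pass the threshold in the analysis as reported, with RLE size factors, with the top 25% of spots or with the narrow list, and passed in the others: -2.90 by DESeq2, -2.83 with no filter, -3.37 with the replicate block, -2.95 with the top fiftieth, -2.92 and -2.49 in matched spots, and -3.20, -3.18 and -2.63 with the block added. The narrow match held 5 lung spots of Mouse_627. Plat passed in spots matched on the carcinoma list (1.33, adjusted p = 0.0429), and not with the block added (adjusted p = 0.0649). Leaving out one mouse gave -1.16 to 1.26 for Plau, -0.65 to -0.25 for Plaur, 0.57 to 1.69 for Plat and -4.54 to -2.17 for Serpine2. Serpinb2 turned from 0.39 to -0.34 and -0.11 in matched spots, or -0.83 and -0.89 with the block.

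Between hypoxia-rich and hypoxia-poor tumour spots, DESeq2 called 3 genes and the replicate block 19. Plaur turned to -0.036 in spots of at least 2000 UMIs and was -0.14 to 0.12 leaving out one mouse, and Plat turned to 0.10 with the replicate block. The settings with the top fiftieth or matched spots were chosen after seeing the data, and the cause of these changes was not tested. The block also brought calls of Mrc2 (adjusted p = 0.0219), Serping1 (adjusted p = 0.00111) and Thbd (adjusted p = 0.00437) in carcinoma-rich lung spots against tumour. In that comparison the block also brought the call of Serpine2. Among the members and pathway genes reported here, the block changed no other call in the 4 comparisons as reported. The shallow, high-background tumour of Mouse_628 limits Plat and Serpinb2.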
